A study of Mus musculus with 4 samples.

Results

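The tumor effect in exercised lung was the change in lung gene expression between tumor-injected and tumor-free mice that had both been trained, E(+)T(+) against E(+)T(-). Its members were the genes with a mean of at least 100 normalized counts over the 4 lung libraries, which was 9396 of the 23282 gene rows measured. The libraries were 3′ mRNA-seq (QuantSeq) of total RNA from lung of male CDF1 mice, labelled as postnatal day 28, with 1 library for each group. E(-)T(-) mice, the normal control, were neither trained nor injected. E(+)T(-) mice, normal exercise, ran on a treadmill at high intensity. E(-)T(+) mice, the cancer control, received CT26 murine colorectal cancer cells without training, and E(+)T(+) mice, cancer exercise, received the cells and the training. The study allotted 10 mice to each group. It describes the muscle libraries as coming from a representative mouse of each group, and whether a lung library came from 1 mouse or several is not given in the sources used here. The labelled day equals the age at which the methods say the mice were bought, and the animals were killed later, at the end of the experiment, so it is not the age at sampling. CT26 cells were given through the tail vein, so an injected lung may hold host tissue and tumor cells together, and a bulk library does not separate them. With 1 library in a group there was no replicate spread and no test across samples. A difference is given here as a description of 2 libraries, and a gene is called higher or lower where E(+)T(+) and E(+)T(-) differed by at least 2-fold, a log2 difference of at least 1 in size.

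Cells injected into the tail vein reach the capillary bed of the lung first, a route used to seed tumors there. The lung is also a reservoir of blood cells. Neutrophils lodge in its capillaries, megakaryocytes release platelets in it, and red cells remain in it unless it is perfused. Growing tumors can change the output of the bone marrow toward neutrophils and their precursors, and red cell production can move to the spleen. Hard exercise, for its part, is known to raise heat shock proteins, the chaperones that bind unfolded proteins, and to release blood cells from marginal stores.

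The values are normalized counts, the number of reads of a gene after the scaling that the authors applied between libraries, with 1 added before the log2. A log2 difference always means E(+)T(+) minus E(+)T(-). Whole reads could be recovered from the deposited values, to within 1 read for 94.60% of them and approximately for the highest ones. They summed to about 13017318 in normal control, 12780408 in normal exercise, 9354602 in cancer control and 13367996 in cancer exercise. Each interval given beside a difference is the exact (Clopper-Pearson) 95% interval of the ratio of the reads of the 2 libraries. It covers counting error only, since the reads carry no molecular identifiers and no second library of a group was sequenced. A library with no read of a gene allows up to 0.235 CPM in normal exercise and 0.224 in cancer exercise, which is what 3 reads would give. The lung label was borne out by its defining genes. Sftpc, the surfactant protein of alveolar type 2 cells, was at 141162 in normal exercise and 81470 in cancer exercise, with 116987 in normal control and 12347 in cancer control. Scgb1a1, the secretoglobin of club cells, was at 520665 in normal exercise and 526837 in cancer exercise, with 428518 in normal control and 117068 in cancer control. The libraries also differed in blood. Hemoglobin genes held 14.17% of reads in normal exercise and 31.43% in cancer exercise, against 14.33% in normal control and 1.43% in cancer control. The rows Hbb-b1 and Hbb-bs had close values in every library, as did Hbb-b2 and Hbb-bt. Reads may thus be counted in both rows of a pair, and the shares would then be overstated. In a bulk sample, fewer cells of a type and less RNA per cell cannot be told apart.

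Of the 9396 genes, 921 were higher by 2-fold in cancer exercise, which was 9.80% of those described, and 765 were lower, which was 8.14%. Together 1686 genes, or 17.9%, passed the limit. The count of each gene list is to be read against these shares. The median log2 difference was -0.01 and the median size of the difference was 0.46. The middle of the distribution ran from -0.47 at the 25th percentile to 0.45 at the 75th, whereas the upper tail reached 1.49 at the 95th percentile and the lower tail -1.20 at the 5th. Upward genes outnumbered downward ones at each larger size. Differences of 4-fold were upward in 258 genes and downward in 65, those of 8-fold upward in 85 and downward in 11, those of 16-fold upward in 28 and downward in 4, and those of 32-fold upward in 12 and downward in 3. The direction counts depended on the scaling. When the recovered reads were divided by library totals alone, the median moved from -0.01 to -0.42, and 517 genes were higher and 1890 lower. The share of called genes that were higher then went from 54.6% to 21.5%. When the totals left out the hemoglobin genes and Rn45s, the ribosomal RNA precursor, 829 genes were higher and 916 lower, a share of 47.5%.

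**Figure D1:**
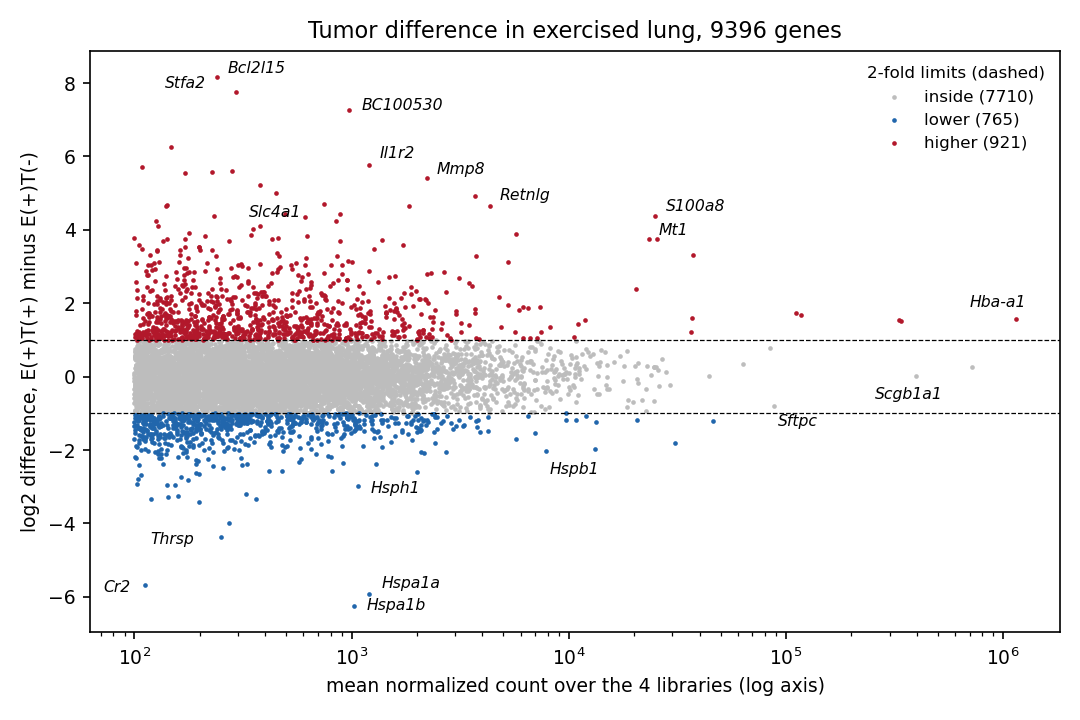
Each point is a gene with a mean of at least 100 normalized counts, with its mean level over the 4 lung libraries on the x axis (log scale) and its log2 difference, E(+)T(+) minus E(+)T(-), on the y axis. The 921 genes higher by 2-fold and the 765 lower by 2-fold are coloured, and the upper tail reaches further from 0 than the lower one.

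All 1686 genes past the limit had an interval wholly on the same side of 0 as the difference, and for 1059 of them (643 higher and 416 lower) the whole interval lay past 2-fold. Over the 9396 genes the median half-width of the interval was 0.22. No gene lacked reads in either of the 2 libraries, and 9 genes had under 10 reads in normal exercise and 3 in cancer exercise. Genes with a mean between 100 and 300 normalized counts supplied 422 of the higher and 398 of the lower genes, while the 96 genes at 10000 or more supplied 15 and 7. The filter drew on cancer exercise itself. A total of 199 genes would not have reached a mean of 100 over the other 3 libraries, and of these 111 were higher by 2-fold and 0 were lower. Among the genes named here Apol11b, Asprv1, Bcl2l15, Camp, Cxcl2, Cxcl10, Dgat2, Fos, Gdf15, Gp5, Hbq1b, Ifitm6, Mzb1, Slc2a3, Slc4a1, Trem1 and the stefins Stfa1, Stfa2, Stfa2l1 and Stfa3 were of that kind, so their place among the members rests on the library in which they are high. The nearest genes inside the filter were Sec22c with a mean of 100.07 and Lysmd1 with 100.06, at log2 differences of -1.23 and -0.47. The nearest outside were Usp11 and Cdk20, both at 99.99, with -0.39 and 0.68.

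**Figure D2:**
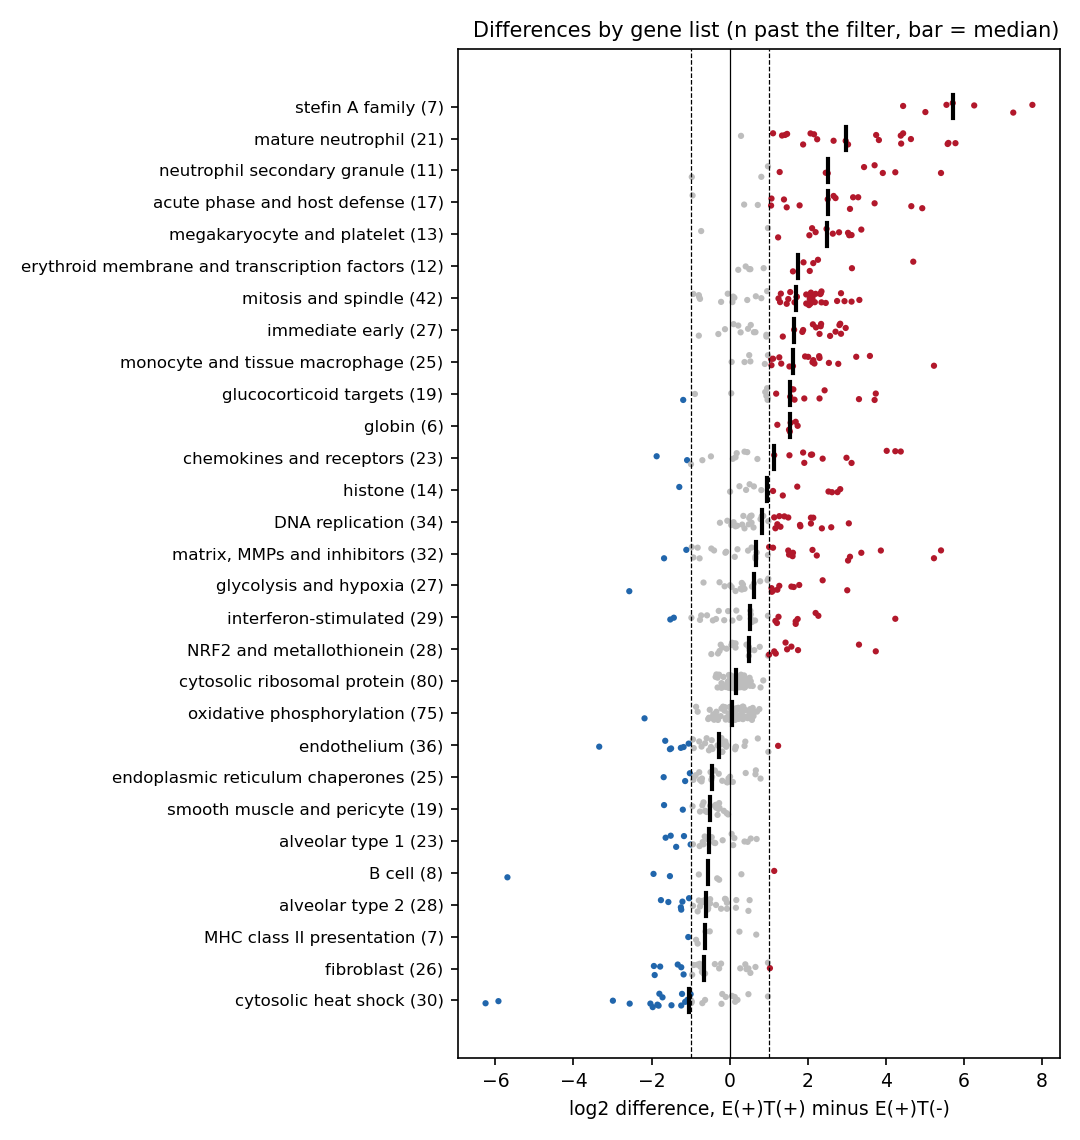
Each point is a gene of a cell-type or pathway list with a mean of at least 100 normalized counts, placed by its log2 difference, E(+)T(+) minus E(+)T(-), with the lists on the y axis and the median of each list marked. The neutrophil, stefin A, platelet and acute phase lists sit to the right of 0, the cytosolic heat shock list to the left, and the ribosomal protein list close to 0.

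The genes of mature neutrophils, the phagocytes that arrive earliest at inflamed tissue, were higher almost throughout. Of the 24 measured genes in that list, 21 passed the filter, 20 were higher by 2-fold, beside 9.80% of all genes, and 0 lower, with a median log2 difference of 2.97. Of the 21 genes 6 passed only through cancer exercise. S100a8 encodes a subunit of calprotectin, the main protein of neutrophil cytosol. Its normalized count was 1366 in normal control, 4299 in normal exercise, 3909 in cancer control and 90334 in cancer exercise. S100a9, its partner subunit, was at 2155 in normal control, 6561 in normal exercise, 4184 in cancer control and 88598 in cancer exercise. The cancer exercise library was the highest for both, and their log2 differences were 4.39 (interval 4.35 to 4.44) and 3.75 (3.72 to 3.79). Together these 2 genes held 0.0925% of the reads of normal exercise and 1.14% of those of cancer exercise. Retnlg, a resistin-like secreted protein, was at 110 in normal control, 634 in normal exercise, 709 in cancer control and 15803 in cancer exercise, a difference of 4.64 (4.53 to 4.75).

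Among the neutrophil surface receptors named in this paragraph, all but Fpr1 were higher. Il1r2, a decoy receptor that takes up interleukin 1 without signalling, was at 13.5 in normal control, 77.1 in normal exercise, 407 in cancer control and 4296 in cancer exercise. Its difference was 5.78 (5.49 to 6.13), and its levels in the injected libraries were both above those in the tumor-free ones. Trem1, which amplifies inflammatory signalling in myeloid cells, was at 49.5 in normal exercise and 714 in cancer exercise, with 23.7 in normal control and 58.1 in cancer control. Cxcr2, the chemokine receptor that calls neutrophils out of the marrow, was at 147 in normal exercise and 543 in cancer exercise, with 52.6 in normal control and 125 in cancer control, and its difference of 1.88 (1.62 to 2.16) was smaller than that of Trem1 at 3.82 (3.45 to 4.28). Fpr1, the formyl peptide receptor, was the member of the list inside the limit, at 182 in normal exercise and 222 in cancer exercise and a difference of 0.29 (-0.01 to 0.58). Its relative Fpr2 was higher, at 722 in normal exercise and 3035 in cancer exercise, with 741 in normal control and 232 in cancer control, a difference of 2.07 (1.96 to 2.19). Asprv1, an aspartic protease, and Ifitm6, an interferon-induced transmembrane protein, both had under 20 normalized counts in normal exercise. They reached 978 and 790 in cancer exercise, with differences of 5.60 (5.04 to 6.36) and 5.58 (4.97 to 6.45).

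Granule proteins are made in sequence as a neutrophil matures, with primary granules filled in the promyelocyte and secondary granules filled later. For secondary granules and related proteins, 8 of 11 genes past the filter were higher and 0 lower, and the median was 2.51. Of the 11 genes 2 passed the filter only through cancer exercise. Mmp8, the neutrophil collagenase, was at 54.3 in normal control, 191 in normal exercise, 448 in cancer control and 8163 in cancer exercise. Ngp, neutrophilic granule protein, was at 21.1 in normal control, 161 in normal exercise, 167 in cancer control and 3048 in cancer exercise. Camp, the precursor of the antimicrobial peptide cathelicidin, was at 19.4 in normal control, 68.8 in normal exercise, 64.7 in cancer control and 758 in cancer exercise. For these 3 genes cancer exercise stood more than 10-fold above each of the other libraries, and their differences were 5.41 (5.22 to 5.62), 4.24 (4.02 to 4.47) and 3.44 (3.11 to 3.83). Lactoferrin (Ltf) followed another order, at 113 in normal exercise and 648 in cancer exercise, with 133 in normal control and 1709 in cancer control, so the highest library was the resting injected one. Lyz2, the lysozyme shared by neutrophils and macrophages, was at 10050 in normal exercise and 5144 in cancer exercise, a difference of -0.97 (-1.02 to -0.92) opposite in sign to the rest of the list. Of the primary granule list only Srgn and Serpinb1a reached the filter, with differences of 1.05 (0.99 to 1.11) and 0.17 (-0.01 to 0.35), and the proteases and peroxidase that define that granule lay under it. With the filter lowered to a mean of 4, 9 genes of that list remained, 6 of them higher, with a median of 4.89.

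**Figure D3:**
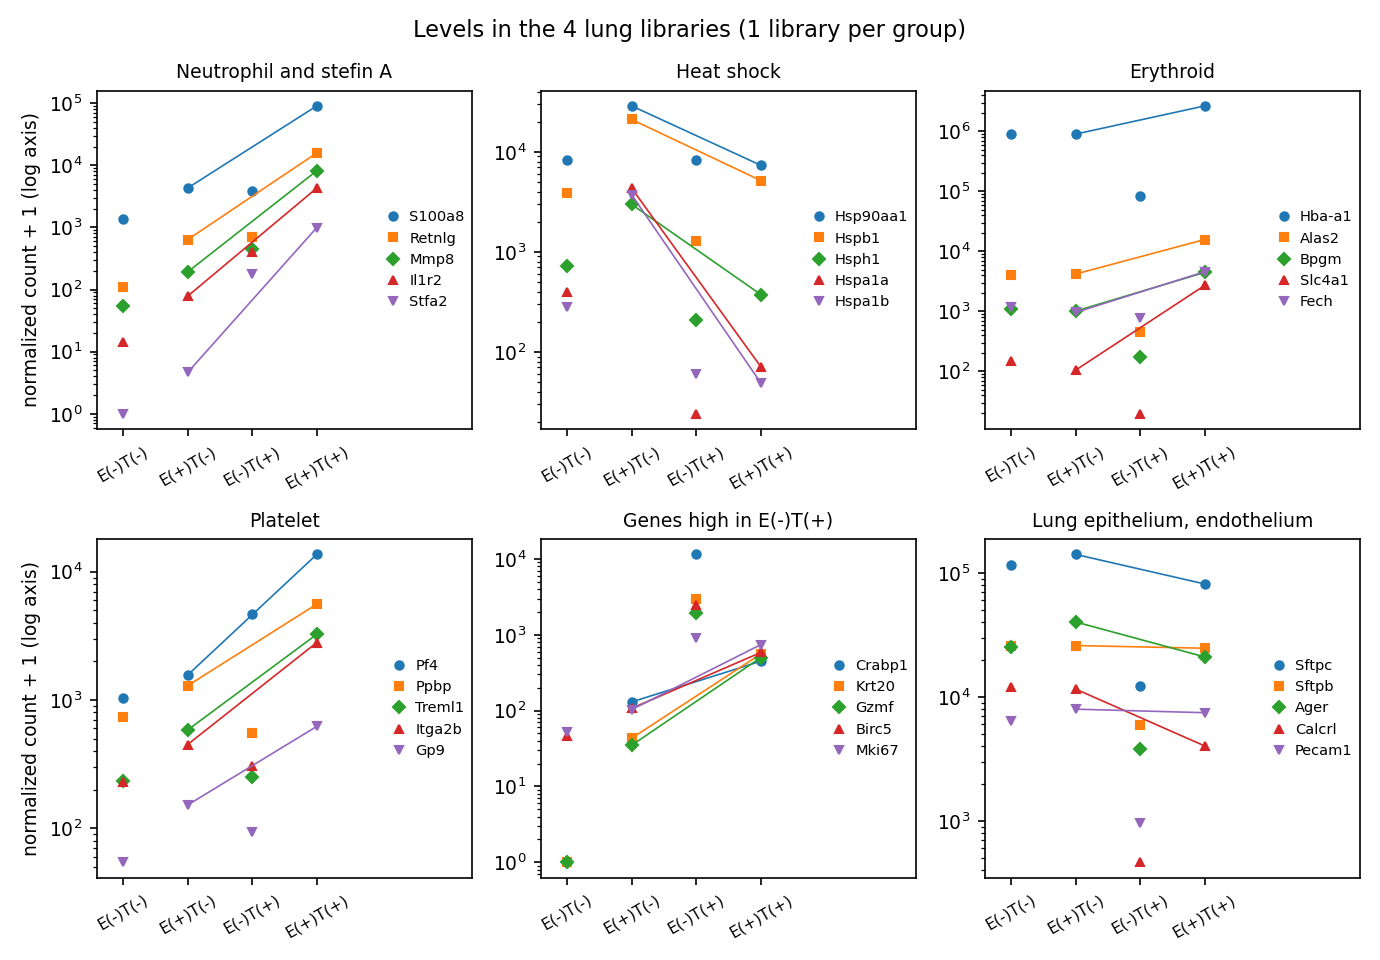
Normalized counts plus 1 (log scale) of selected genes in each of the 4 lung libraries, 1 point for each library, with a line joining the exercised pair and no error bars because each group had 1 library. S100a8, Retnlg, Mmp8 and Il1r2 are highest in E(+)T(+), and Hspa1a and Hspa1b are highest in E(+)T(-).

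The stefin A genes, which encode cytosolic inhibitors of cysteine cathepsins and lie in a cluster on chromosome 16, held several of the largest ratios. All 7 members past the filter were higher, with a median of 5.71, and 6 of the 15 genes with the largest upward differences among all 9396 were stefin A genes. Of these 7 members 5, and of the 15 genes 10, had a mean under 100 over the other 3 libraries and passed the filter only through cancer exercise, where they were high. Stfa2 (GRCm38.p6 chr16:36403946-36408363) was at 0 in normal control, 3.62 in normal exercise, 180 in cancer control and 993 in cancer exercise. Stfa2l1 (chr16:36156811-36161948) was at 12.6 in normal control, 46.8 in normal exercise, 198 in cancer control and 1544 in cancer exercise. BC100530, another member of the family, was at 7.54 in normal control, 21.1 in normal exercise, 481 in cancer control and 3382 in cancer exercise. In each case the order was the same, with cancer exercise highest, cancer control next and the tumor-free libraries far below, and the differences were 7.75 (6.72 to 9.96), 5.01 (4.64 to 5.48) and 7.26 (6.73 to 7.98). The wide intervals of Stfa2 and its neighbours came from few reads in normal exercise, for Stfa2 4 against 850 in cancer exercise. The genes of this cluster resemble each other, so reads could be shared between them. Of the 50-base words in the last 300 bases of the annotated transcript, 51.0% of those of Stfa1, 25.1% of those of Stfa2 and 66.1% of those of BC100530 also occurred in another gene, whereas 0 of those of Stfa3 did. Stfa3 alone gave 0 in normal control, 4.53 in normal exercise, 137 in cancer control and 290 in cancer exercise and a difference of 5.71 (4.74 to 7.62). The largest difference of any of the 9396 genes, and one that also passed the filter only through cancer exercise, belonged to Bcl2l15 (chr3:103831036-103854618), a relative of the Bcl2 regulators of cell death, at 0.747 in normal control, 1.78 in normal exercise, 163 in cancer control and 796 in cancer exercise. Its difference was 8.16 (6.90 to 11.81) and rested on 2 reads in normal exercise and 681 in cancer exercise.

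Red cell genes were also higher, the main alpha and beta globins at a smaller ratio and a much higher level. All 6 genes of the hemoglobin list past the filter were higher, with a median of 1.55. Hbq1b, a theta globin outside that list, was at a low level and a larger ratio, 24.7 in normal exercise and 443 in cancer exercise, a difference of 4.11 (3.59 to 4.78). Hba-a1, an alpha globin, was at 909679 in normal control, 904022 in normal exercise, 84460 in cancer control and 2669243 in cancer exercise. Hbb-bs, an adult beta globin, was at 242730 in normal control, 280569 in normal exercise, 23105 in cancer control and 806323 in cancer exercise. Both were highest in cancer exercise and lowest in cancer control, and the tumor-free libraries lay close together between them. The globin copies share sequence, with 80.1% of the words of Hba-a1 and 36.7% of those of Hbb-bs present in another gene, so their values describe the family rather than each copy. Hbb-b1 was close to Hbb-bs in each library, with 274224 in normal exercise and 795773 in cancer exercise. Hbb-b2 and Hbb-bt were also close, at 277859 and 288057 in cancer exercise. Each of these pairs may hold the same reads, so the 6 rows may not be 6 separate genes. Alas2, the erythroid enzyme that starts heme synthesis, was at 4022 in normal control, 4201 in normal exercise, 454 in cancer control and 15825 in cancer exercise, a difference of 1.91 (1.86 to 1.96). Fech, the enzyme that ends it by inserting iron, was at 962 in normal exercise and 4598 in cancer exercise, with 1191 in normal control and 788 in cancer control, a difference of 2.26 (2.16 to 2.36). In all 7 of 11 heme and iron genes were higher. The transferrin receptor Tfrc, through which erythroblasts take up iron, was at 668 in normal exercise and 701 in cancer exercise, inside the limit with a difference of 0.07 (-0.09 to 0.23).

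Slc4a1 (chr11:102348820-102365281), the band 3 anion exchanger, was at 150 in normal control, 104 in normal exercise, 18.7 in cancer control and 2718 in cancer exercise, a difference of 4.70 on 113 and 2326 reads in the exercised pair, and it passed the filter only through cancer exercise. Bpgm, the mutase that makes the 2,3-bisphosphoglycerate regulating oxygen release by hemoglobin, was at 1084 in normal control, 1012 in normal exercise, 170 in cancer control and 4475 in cancer exercise, a difference of 2.14 (2.05 to 2.24). Both genes shared the order of the globins, cancer exercise first and cancer control last. Of the 12 genes of this list past the filter 7 were higher and 0 lower, with a median of 1.75, and 3 of the 12 passed only through cancer exercise. Tal1, a transcription factor of blood progenitors, was inside the limit at 321 in normal exercise and 464 in cancer exercise.

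Platelet genes were higher in 11 of 13 cases, with a median of 2.48, and 2 of the 13 passed the filter only through cancer exercise. Pf4, platelet factor 4, was at 1040 in normal control, 1563 in normal exercise, 4665 in cancer control and 13643 in cancer exercise. Itgb3, the beta subunit of the fibrinogen receptor, was at 159 in normal control, 304 in normal exercise, 265 in cancer control and 2486 in cancer exercise. Gp5, a subunit of the von Willebrand factor receptor, was at 61.9 in normal control, 114 in normal exercise, 105 in cancer control and 954 in cancer exercise. All 3 were highest in cancer exercise, with differences of 3.12 (3.05 to 3.20), 3.03 (2.86 to 3.20) and 3.06 (2.79 to 3.35), and Pf4 was also high in cancer control. Ppbp, a platelet chemokine, was at 1292 in normal exercise and 5590 in cancer exercise, with 733 in normal control and 552 in cancer control, a difference of 2.11 (2.03 to 2.20). Gng11, which endothelium also expresses, was the gene of the list below 0, at 4341 in normal exercise and 2622 in cancer exercise, a difference of -0.73 (-0.80 to -0.65). Summed over the list, the platelet genes were at 9641 in normal control, 13186 in normal exercise, 8559 in cancer control and 44675 in cancer exercise.

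Monocyte and macrophage genes were higher in large number, 19 of 25 being higher and 0 lower, with a median of 1.62. Vcan, a matrix proteoglycan made by classical monocytes, was at 53.4 in normal control, 28.4 in normal exercise, 330 in cancer control and 1101 in cancer exercise. F13a1, a coagulation factor subunit carried by monocytes and platelets, was at 290 in normal control, 331 in normal exercise, 2242 in cancer control and 4000 in cancer exercise. Both were higher in each injected library than in either tumor-free one, with differences of 5.23 (4.76 to 5.84) and 3.59 (3.44 to 3.76). Ly6c2, the surface antigen of classical monocytes, was at 461 in normal control, 650 in normal exercise, 263 in cancer control and 2840 in cancer exercise, so it was highest in cancer exercise and lowest in cancer control. Complement C1q, which tissue macrophages make, followed the opposite order among injected libraries. C1qa was at 329 in normal control, 349 in normal exercise, 3711 in cancer control and 1543 in cancer exercise, a difference of 2.14 (1.98 to 2.31). Csf1r and Cx3cr1, receptors found on most monocytes, stayed inside the limit with 0.53 (0.42 to 0.63) and 0.38 (0.07 to 0.70).

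Alveolar macrophages, the resident phagocytes of the airspace, gave a mixed list with 4 of 23 genes higher, 3 lower and a median of -0.51. Marco, a scavenger receptor, was at 35.6 in normal control, 24.7 in normal exercise, 702 in cancer control and 331 in cancer exercise, a difference of 3.69 (3.17 to 4.36), and Lgals3, galectin 3, was at 2057 in normal control, 1999 in normal exercise, 12580 in cancer control and 7032 in cancer exercise, a difference of 1.81 (1.74 to 1.89). Both were highest in cancer control. Abcg1, a cholesterol exporter that keeps these cells free of surfactant lipid, went the other way, at 906 in normal control, 547 in normal exercise, 169 in cancer control and 195 in cancer exercise with a difference of -1.48 (-1.74 to -1.24). Chil3, a chitinase-like protein counted in this list and among granule genes, was at 1796 in normal exercise and 9856 in cancer exercise, with 1296 in normal control and 1339 in cancer control. Neutrophil genes were higher in the same library. The mature neutrophil list, 21 of 24 genes past the filter, summed to 6950 in normal control, 16658 in normal exercise, 12408 in cancer control and 222236 in cancer exercise, and its part in the macrophage and monocyte values was not tested.

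Acute phase and host defense genes were higher in 14 of 17 cases, with a median of 2.51. Saa3 (chr7:46711998-46719615), a serum amyloid made in tissue, was at 73 in normal control, 183 in normal exercise, 8877 in cancer control and 5598 in cancer exercise, a difference of 4.93 (4.73 to 5.15). That difference becomes larger when 1.47% of the cancer control level is taken from normal exercise, an alternative used below. Serpina3n, a serine protease inhibitor, was at 173 in normal control, 198 in normal exercise, 1976 in cancer control and 4997 in cancer exercise, a difference of 4.65 (4.46 to 4.86). Lrg1, a leucine-rich glycoprotein of endothelium and neutrophils, was at 595 in normal control, 1009 in normal exercise, 3408 in cancer control and 9911 in cancer exercise, a difference of 3.29 (3.21 to 3.39). Each was higher in both injected libraries than in either tumor-free library, with Saa3 highest in cancer control and the other 2 highest in cancer exercise. Lcn2, which sequesters bacterial siderophores, was at 308 in normal exercise and 4044 in cancer exercise, with 293 in normal control and 873 in cancer control. Orm3, an acid glycoprotein, was the gene of the list with the most negative value, at 220 in normal exercise and 113 in cancer exercise and -0.95 (-1.31 to -0.61).

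Among chemokines and their receptors 12 of 23 were higher and 2 lower, and 4 of the 23 passed the filter only through cancer exercise. With the filter at a mean of 4, 21 of 47 were higher and 13 lower. Cxcl2, a ligand of Cxcr2, was at 31.3 in normal control, 36.7 in normal exercise, 77.8 in cancer control and 784 in cancer exercise. Cxcl10, a ligand of the interferon-induced set, was at 13.5 in normal control, 16.5 in normal exercise, 140 in cancer control and 329 in cancer exercise. Cxcl13, which draws B cells into follicles, was at 95.9 in normal control, 45 in normal exercise, 526 in cancer control and 747 in cancer exercise. All 3 were higher in both injected libraries than in the tumor-free ones, and their differences were 4.38 (3.96 to 4.91), 4.24 (3.63 to 5.09) and 4.02 (3.63 to 4.50). Cxcl5, a neutrophil chemokine of alveolar epithelium, ran against its relative Cxcl2, at 363 in normal control, 663 in normal exercise, 131 in cancer control and 180 in cancer exercise and a difference of -1.87 (-2.14 to -1.63). Ccl21a, the lymphatic ligand that guides T cells, was lower at 524 in normal control, 474 in normal exercise, 28.6 in cancer control and 222 in cancer exercise. Among cytokines and their receptors 9 of 24 were higher and 3 lower. Il1b, interleukin 1 beta, was at 285 in normal control, 723 in normal exercise, 152 in cancer control and 1937 in cancer exercise, while Il18r1, a subunit of the interleukin 18 receptor, was at 687 in normal control, 963 in normal exercise, 39.5 in cancer control and 237 in cancer exercise. Their differences were 1.42 (1.30 to 1.55) and -2.02 (-2.24 to -1.80). Il18rap, the other subunit of the same receptor, was higher at 97.3 in normal exercise and 248 in cancer exercise, with 65.3 in normal control and 540 in cancer control, so the 2 subunits moved apart.

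Interferon-stimulated genes were more often higher than lower. Of 29 genes past the filter 9 were higher and 2 lower, beside 9.80% and 8.14% of all genes, with a median of 0.53. Of the 29 genes 2 passed only through cancer exercise, and the median was 0.12 with the scaling by totals alone. With the filter at a mean of 4, 19 of 42 were higher and 2 lower, with a median of 0.61. Irf7, a transcription factor that amplifies the interferon response, was at 117 in normal control, 89.1 in normal exercise, 232 in cancer control and 435 in cancer exercise. Rsad2, the antiviral enzyme viperin, was at 479 in normal control, 661 in normal exercise, 163 in cancer control and 2209 in cancer exercise. Iigp1, an immunity-related GTPase, was at 892 in normal control, 348 in normal exercise, 175 in cancer control and 1601 in cancer exercise. Cancer exercise was the highest library for all 3, with differences of 2.27 (1.96 to 2.62), 1.74 (1.62 to 1.87) and 2.20 (2.04 to 2.37). Gbp4, a guanylate-binding protein, was at 815 in normal control, 539 in normal exercise, 34 in cancer control and 187 in cancer exercise. It was lower in both injected libraries than in either tumor-free one, with a difference of -1.52 (-1.79 to -1.27).

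Antigen presentation genes showed mostly small differences. For MHC class I 1 of 15 genes was higher and 1 lower, and these were the 2 subunits of the peptide transporter. Tap1 was at 316 in normal control, 213 in normal exercise, 397 in cancer control and 568 in cancer exercise, a difference of 1.41 (1.19 to 1.65), and Tap2 was at 224 in normal control, 209 in normal exercise, 403 in cancer control and 62.1 in cancer exercise, a difference of -1.73 (-2.21 to -1.31). B2m, the light chain of class I, was at 32316 in normal exercise and 27005 in cancer exercise and -0.26 (-0.28 to -0.24). For MHC class II, carried by B cells, dendritic cells and macrophages, 0 of 7 genes were higher and 1 was lower, and the median was -0.62. H2-Aa was at 9108 in normal control, 11074 in normal exercise, 467 in cancer control and 5311 in cancer exercise, a difference of -1.06 (-1.11 to -1.01). H2-Eb1 and Cd74, the invariant chain, were inside the limit at -0.86 (-0.93 to -0.79) and -0.82 (-0.90 to -0.75). Ctss, the protease that trims the invariant chain, had the opposite sign at 0.68 (0.62 to 0.74).

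Few lymphocyte genes reached the filter, and more of them were lower than higher. Of 8 B cell genes past the filter 1 was higher and 3 were lower, with a median of -0.55. Cr2 (chr1:195136811-195176880), the complement receptor of follicular B cells, was at 127 in normal control, 299 in normal exercise, 18.7 in cancer control and 4.8 in cancer exercise, a difference of -5.69 (-7.88 to -4.63) that rested on 4 reads in cancer exercise. Cd79b, a signalling chain of the B cell receptor, was at 265 in normal control, 225 in normal exercise, 12.1 in cancer control and 77.2 in cancer exercise, a difference of -1.53 (-1.96 to -1.15). Plasma cell genes did not follow. Jchain, which joins secreted IgM and IgA, was at 146 in normal control, 104 in normal exercise, 51.6 in cancer control and 812 in cancer exercise, a difference of 2.96 (2.68 to 3.27), and Mzb1, an endoplasmic reticulum protein of antibody-secreting cells, was at 73.9 in normal control, 88.1 in normal exercise, 25.3 in cancer control and 285 in cancer exercise. Both were highest in cancer exercise. Of 4 T cell genes 1 was lower, Ptprcap at 244 in normal exercise and 92.4 in cancer exercise, while Cd3d was at 209 in normal exercise and 264 in cancer exercise and inside the limit. Of 4 natural killer cell genes 1 was lower, the granzyme Gzma at 679 in normal exercise and 287 in cancer exercise, with 983 in normal control and 397 in cancer control. Foxp3, the factor of regulatory T cells, was at 68.8 in normal exercise and 116 in cancer exercise with a difference of 0.74 (0.30 to 1.20). Most genes of the T cell and natural killer lists, 24 of 28 and 18 of 22 measured, lay under the filter. With the filter at a mean of 4, 12 of 23 B cell genes were lower and 1 higher, 9 of 27 T cell genes were lower and 0 higher, and 12 of 18 natural killer genes were lower and 1 higher, with medians of -1.02, -0.59 and -1.35.

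Cytosolic heat shock genes formed the clearest group of lower genes. Of 30 genes past the filter 16 were lower by 2-fold, beside 8.14% of all genes, and 0 higher, with a median of -1.04. The largest downward differences of all 9396 genes were those of the stress-inducible Hsp70 pair, Hspa1b and Hspa1a, which sit side by side on chromosome 17. Hspa1b (chr17:34956429-34959238) was at 279 in normal control, 3727 in normal exercise, 59.3 in cancer control and 48.1 in cancer exercise, a difference of -6.25 (-6.76 to -5.84). Hspa1a (chr17:34969359-34972156) was at 398 in normal control, 4329 in normal exercise, 23.1 in cancer control and 70.3 in cancer exercise, a difference of -5.92 (-6.34 to -5.58). In both cases normal exercise was by far the highest library, and the injected libraries were below both tumor-free ones. None of the 50-base words in the last 300 bases of either gene occurred in another gene, so reads within that stretch can be assigned to each copy. The bases further upstream and the positions of the counted reads were not examined.

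The heat shock promoters are shown because these genes moved together. Heat shock factor 1 binds inverted repeats of the 3-base unit GAA. The RefSeq promoter windows below run from 250 bases before to 50 bases after the start on GRCm38.p6, 5′ to 3′ on the strand of the gene. Capitals mark each pair of facing units, spelled GAANNTTC or TTCNNGAA, both of which read the same on either strand and can overlap where units run on.
Hspa1b (chr17:34959189-34959488, minus strand): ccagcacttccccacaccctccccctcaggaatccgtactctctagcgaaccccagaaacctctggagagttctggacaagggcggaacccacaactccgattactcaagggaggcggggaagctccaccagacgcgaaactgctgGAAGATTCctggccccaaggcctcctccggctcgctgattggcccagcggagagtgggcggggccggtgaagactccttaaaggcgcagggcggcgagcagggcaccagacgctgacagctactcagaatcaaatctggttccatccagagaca
Hspa1a (chr17:34972107-34972406, minus strand): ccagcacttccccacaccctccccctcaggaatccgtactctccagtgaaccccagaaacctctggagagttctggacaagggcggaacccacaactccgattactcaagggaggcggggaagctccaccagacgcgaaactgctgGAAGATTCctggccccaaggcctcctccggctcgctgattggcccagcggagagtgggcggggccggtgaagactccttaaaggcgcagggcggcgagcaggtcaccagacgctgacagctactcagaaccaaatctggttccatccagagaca
Hsph1 (chr5:149636287-149636586, minus strand, the first of 2 starts listed): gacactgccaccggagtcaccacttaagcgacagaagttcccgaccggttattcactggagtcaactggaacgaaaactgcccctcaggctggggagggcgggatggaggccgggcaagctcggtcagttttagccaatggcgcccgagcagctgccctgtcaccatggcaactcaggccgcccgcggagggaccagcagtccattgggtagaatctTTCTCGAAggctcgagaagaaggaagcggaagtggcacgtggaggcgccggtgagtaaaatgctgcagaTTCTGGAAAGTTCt
The Hspa1a and Hspa1b windows were the same at 296 of 300 bases (98.7%) and each held 1 match, at position -104 from the start. The Hsph1 start used here, 149636336, lies 162 bases inside the outermost start of the gene. Its window held 3 matches, at -33, 36 and 41, and the last 2 joined into 3 alternating units. At least 1 such pair was present in 4946 of the 32851 windows tabulated (15.1%), and 3 alternating units in 198 (0.603%). A match describes the letters in the window and is not a bound site.

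The other lower genes of the list had smaller ratios. Hsph1 (chr5:149616843-149636498), the Hsp110 exchange factor of Hsp70, was at 723 in normal control, 2983 in normal exercise, 206 in cancer control and 374 in cancer exercise, a difference of -2.99 (-3.17 to -2.83). Hspb1, the small heat shock protein Hsp27, was at 3866 in normal control, 21056 in normal exercise, 1277 in cancer control and 5166 in cancer exercise, a difference of -2.03 (-2.07 to -1.98). Hsp90aa1, the inducible Hsp90, was at 8225 in normal control, 28763 in normal exercise, 8231 in cancer control and 7336 in cancer exercise, a difference of -1.97 (-2.01 to -1.93). Normal exercise was the highest library for each of them. Hsp90ab1, the constitutive Hsp90, was at 19605 in normal control, 49255 in normal exercise, 40876 in cancer control and 13930 in cancer exercise, so here the resting injected library was high as well. Chordc1, an Hsp90 cochaperone, was at 1897 in normal exercise and 322 in cancer exercise, with 793 in normal control and 238 in cancer control. The transcription factor itself, Hsf1, was at 171 in normal exercise and 110 in cancer exercise, inside the limit with -0.63 (-1.01 to -0.27). Fkbp5, a steroid-responsive Hsp90 cochaperone, had the highest value of the list at 0.98 (0.80 to 1.16) and was highest in cancer control with 2987. Summed over the list the heat shock genes were at 56413 in normal control, 150602 in normal exercise, 82288 in cancer control and 47730 in cancer exercise, so the normal exercise library stood above the other 3.

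Other chaperone families had smaller medians. DnaJ cochaperones, which deliver substrates to Hsp70, were lower in 5 of 23 cases, with a median of -0.20. Dnaja1 was at 2414 in normal control, 5946 in normal exercise, 1141 in cancer control and 1432 in cancer exercise, a difference of -2.05 (-2.14 to -1.97), and Dnajb1 was at 1000 in normal control, 3073 in normal exercise, 601 in cancer control and 1209 in cancer exercise, a difference of -1.35 (-1.45 to -1.24). Both were highest in normal exercise and lowest in cancer control. Chaperones of the endoplasmic reticulum were lower in 3 of 25 cases, near the 8.14% of all genes. Hsp90b1, the Hsp90 of that compartment, was at 5913 in normal control, 8926 in normal exercise, 5155 in cancer control and 2772 in cancer exercise, a difference of -1.69 (-1.75 to -1.62). None of the 14 genes of the TRiC chaperonin and prefoldin, which fold actin and tubulin, passed the limit. Their values ran from -0.77 for Pdrg1 to 0.29 for Tcp1 and Cct2.

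Immediate early genes, which are switched on within minutes of a stimulus, were higher in 15 of 27 cases and lower in 0, with a median of 1.65. Of the 27 genes 3 passed the filter only through cancer exercise, and the median was 0.94 with the filter at a mean of 500. Junb was at 737 in normal control, 858 in normal exercise, 1241 in cancer control and 6013 in cancer exercise. Fos was at 68.7 in normal control, 64.3 in normal exercise, 151 in cancer control and 469 in cancer exercise. Egr1 was at 203 in normal control, 219 in normal exercise, 879 in cancer control and 1303 in cancer exercise. All 3 encode transcription factors and were highest in cancer exercise, with differences of 2.81 (2.71 to 2.91), 2.85 (2.50 to 3.26) and 2.57 (2.37 to 2.78). Fosl1, another Fos relative, was highest in cancer control, at 1.6 in normal control, 23.8 in normal exercise, 1117 in cancer control and 193 in cancer exercise. Jun was at 3363 in normal exercise and 3607 in cancer exercise, a difference of 0.10 (0.03 to 0.17), and Klf2, a flow-induced factor of endothelium, had the most negative value at -0.79 (-0.85 to -0.74).

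Genes induced by glucocorticoids were higher in 11 of 19 cases and lower in 1, with a median of 1.55. Sgk1, a kinase that regulates sodium transport, was at 596 in normal control, 847 in normal exercise, 1524 in cancer control and 4560 in cancer exercise. Ddit4, an inhibitor of mTORC1, was at 431 in normal control, 1256 in normal exercise, 3035 in cancer control and 6173 in cancer exercise. Both were highest in cancer exercise, with differences of 2.43 (2.32 to 2.53) and 2.30 (2.21 to 2.38). Tsc22d3, the leucine zipper GILZ, is a common readout of glucocorticoid action and did not follow, at 3533 in normal control, 6160 in normal exercise, 4320 in cancer control and 3321 in cancer exercise and a difference of -0.89 (-0.95 to -0.83). The metallothioneins Mt1 and Mt2, small proteins that bind zinc and copper, respond to glucocorticoids, metals and cytokines. Mt1 (chr8:94178883-94180327) was at 1504 in normal control, 2262 in normal exercise, 59227 in cancer control and 30235 in cancer exercise, a difference of 3.74 (3.68 to 3.80). Mt2 (chr8:94172618-94173567) was at 576 in normal control, 2378 in normal exercise, 122294 in cancer control and 23591 in cancer exercise, a difference of 3.31 (3.25 to 3.37). Both were higher in each injected library than in either tumor-free one, and cancer control was the highest. Taking 1.47% of the cancer control level from normal exercise, an alternative used below, makes both differences larger.

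The Mt1 and Mt2 promoters are shown because the pair is neighbouring and moved together. Capitals mark the core of the metal response element, the site of the zinc-sensing factor MTF1, spelled TGCACNC or TGCGCNC on either strand. The windows are again RefSeq promoters of GRCm38.p6, 5′ to 3′ on the strand of the gene.
Mt1 (chr8:94178839-94179138, plus strand): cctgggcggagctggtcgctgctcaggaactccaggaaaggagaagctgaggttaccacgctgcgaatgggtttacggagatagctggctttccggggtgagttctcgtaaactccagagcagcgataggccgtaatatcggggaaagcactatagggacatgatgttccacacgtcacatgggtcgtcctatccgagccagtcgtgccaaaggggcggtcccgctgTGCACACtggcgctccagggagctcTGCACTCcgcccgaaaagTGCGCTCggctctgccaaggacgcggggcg
Mt2 (chr8:94172368-94172667, plus strand): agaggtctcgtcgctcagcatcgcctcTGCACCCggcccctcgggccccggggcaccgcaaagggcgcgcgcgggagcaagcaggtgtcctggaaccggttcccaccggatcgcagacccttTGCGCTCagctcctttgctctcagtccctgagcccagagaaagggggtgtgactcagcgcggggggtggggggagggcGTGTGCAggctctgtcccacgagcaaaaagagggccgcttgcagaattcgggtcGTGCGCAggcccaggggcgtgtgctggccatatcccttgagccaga
The Mt1 window is drawn on a start at 94179089, which lies 206 bases inside the outermost start of the gene given above. It held 3 matches, at -23, 2 and 20 from the start, and the Mt2 window 4, at -223, -128, -50 and 4. At least 1 match was present in 8444 of the 32851 windows (25.7%).

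NRF2 targets and antioxidant genes, in the same list as the metallothioneins, were higher in 9 of 28 cases and lower in 0. Srxn1, sulfiredoxin, was at 226 in normal control, 320 in normal exercise, 570 in cancer control and 1074 in cancer exercise, and Hmox1, the oxygenase that degrades heme, was at 23.7 in normal control, 72.5 in normal exercise, 208 in cancer control and 218 in cancer exercise. Their differences were 1.75 (1.57 to 1.93) and 1.58 (1.20 to 1.99). Clock genes were higher in 7 of 15 cases and lower in 1. Nr1d1, which encodes the repressor REV-ERB alpha, was at 87.4 in normal control, 96.4 in normal exercise, 712 in cancer control and 961 in cancer exercise, and Nr1d2, its relative, was at 188 in normal control, 136 in normal exercise, 776 in cancer control and 571 in cancer exercise. Both were high in the injected libraries. Arntl, which encodes BMAL1 and is repressed by REV-ERB, was at 164 in normal control, 133 in normal exercise, 111 in cancer control and 39.9 in cancer exercise, lowest in cancer exercise. Their differences were 3.30 (3.02 to 3.62), 2.06 (1.80 to 2.35) and -1.71 (-2.33 to -1.20). The hour at which each lung was taken is not given in the sources used here.

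Cell division genes were higher in the injected exercised lung. Of 42 mitosis and spindle genes 29 were higher and 0 lower, with a median of 1.71. Mki67, the nuclear antigen used to count cycling cells, was at 51.7 in normal control, 102 in normal exercise, 914 in cancer control and 740 in cancer exercise. Ccnb1, the cyclin of mitotic entry, was at 21.1 in normal control, 28.4 in normal exercise, 687 in cancer control and 225 in cancer exercise. Birc5, survivin, was at 45.8 in normal control, 106 in normal exercise, 2457 in cancer control and 583 in cancer exercise. For all 3 the order was cancer control, then cancer exercise, then the tumor-free libraries, and the differences were 2.85 (2.57 to 3.16), 2.94 (2.43 to 3.58) and 2.46 (2.17 to 2.77). DNA replication genes were higher in 15 of 34 cases and lower in 0. Rrm2, the regulated subunit of ribonucleotide reductase, was at 24.5 in normal control, 17.4 in normal exercise, 271 in cancer control and 151 in cancer exercise, a difference of 3.05 (2.41 to 3.89). Pcna, the sliding clamp, was inside the limit at 313 in normal exercise and 347 in cancer exercise. Histone genes were higher in 7 of 14 cases and lower in 1, but the copies share sequence, with 70.1% of the words of Hist1h2ab found elsewhere. Hist1h2ac shared 0 words in its last 300 bases but holds words of the other copies further upstream, and was at 43.2 in normal control, 40.4 in normal exercise, 341 in cancer control and 254 in cancer exercise, a difference of 2.62 (2.18 to 3.15). Ccnd1, the cyclin of early cell cycle entry, was at 4041 in normal control, 5606 in normal exercise, 16926 in cancer control and 3235 in cancer exercise, a difference of -0.79 (-0.86 to -0.73).

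Genes absent from the resting tumor-free lung were followed into the exercised pair. Every gene with 0 reads in normal control and at least 500 normalized counts in cancer control was taken, which gave 9 genes. Krt20, an intestinal keratin, was at 0 in normal control, 42.2 in normal exercise, 2954 in cancer control and 557 in cancer exercise. Etv4, an ETS factor downstream of MAP kinase signalling, was at 0 in normal control, 11 in normal exercise, 746 in cancer control and 102 in cancer exercise. Crabp1, a retinoic acid carrier, was at 0 in normal control, 129 in normal exercise, 11480 in cancer control and 447 in cancer exercise. These 3 were highest in cancer control, intermediate in cancer exercise and low in normal exercise, and their differences were 3.69 (3.28 to 4.19), 3.10 (2.33 to 4.21) and 1.78 (1.50 to 2.07). Over the 9 genes cancer exercise stood at between 3.89% and 28.5% of the cancer control level. The tumor-free normal exercise library was not at 0 for them, and stood at between 0.642% and 2.18% of the cancer control level, with a median of 1.47%. The reason for these reads was not tested. When 1.47% of the cancer control level was taken from each normal exercise value, 984 genes were higher and 744 lower, against 921 and 765. That took all or nearly all of the normal exercise level of Krt20, Etv4 and Crabp1. These genes stood there at 1.43%, 1.47% and 1.13% of cancer control, so their differences depend on the normal exercise reads. The granzymes among the 9, Gzmd, Gzmf and Gzmg, are made by activated cytotoxic cells, and Gzmf was at 0 in normal control, 33.9 in normal exercise, 1954 in cancer control and 499 in cancer exercise, a difference of 3.84 (3.39 to 4.40). They and 2 lower genes, Gzma and Serpinb9, were the 5 genes of the cytotoxic list past the filter, so its median of 3.46 was the value of 1 gene, Gzmd, and it turned to -1.11 with the filter over the exercised pair. With the filter at a mean of 4 the list had 14 genes, 6 higher and 5 lower, and a median of 0.28.

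The list of keratins and colon epithelial genes was higher in 7 of 16 cases and lower in 0. It also holds genes of other kinds, and Spry4, Etv4 and Crabp1 were among the higher ones. The count is therefore not a measure of colon epithelium. Spry4, an inhibitor induced by MAP kinase signalling, was at 67 in normal control, 57.8 in normal exercise, 389 in cancer control and 1006 in cancer exercise, and Krt19, a keratin of simple epithelia and mesothelium, was at 1470 in normal control, 1285 in normal exercise, 528 in cancer control and 3000 in cancer exercise. Spry4 was higher in both injected libraries, whereas Krt19 was highest in cancer exercise and lowest in cancer control, and the differences were 4.10 (3.75 to 4.51) and 1.22 (1.13 to 1.32). Epcam, the adhesion molecule of epithelium, was inside the limit at 536 in normal exercise and 647 in cancer exercise. Glycolysis and hypoxia genes were higher in 10 of 27 cases and lower in 1. The transporters differed. Slc2a3, the glucose transporter of neutrophils and platelets among other cells, was at 63.6 in normal control, 118 in normal exercise, 102 in cancer control and 963 in cancer exercise, and Slc2a1, the general transporter, was at 186 in normal control, 185 in normal exercise, 1055 in cancer control and 580 in cancer exercise. The former was highest in cancer exercise and the latter in cancer control, with differences of 3.01 (2.75 to 3.30) and 1.64 (1.40 to 1.89). P4ha1, a collagen hydroxylase induced by hypoxia, was lower, at 500 in normal control, 983 in normal exercise, 273 in cancer control and 165 in cancer exercise. Of 21 amino acid stress genes 6 were higher and 1 was lower. Psat1, of serine synthesis, was at 90.8 in normal control, 95.5 in normal exercise, 1462 in cancer control and 471 in cancer exercise, and Gdf15, a stress hormone, was at 25.4 in normal control, 65.2 in normal exercise, 26.4 in cancer control and 445 in cancer exercise. Psat1 had its peak in cancer control and Gdf15 in cancer exercise.

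Most lists of the lung's own cells had medians below 0. Alveolar type 2 cells, which make surfactant, had 0 of 28 genes higher and 6 lower, beside 9.80% and 8.14% of all genes, with a median of -0.60. Sftpb and Sftpd, surfactant proteins, were at -0.07 (-0.10 to -0.05) and -0.07 (-0.10 to -0.03), inside the limit. Lamp3, a protein of the lamellar body, was at 3097 in normal control, 4039 in normal exercise, 148 in cancer control and 1713 in cancer exercise, a difference of -1.24 (-1.32 to -1.15). Hc, complement C5, was at 1142 in normal control, 1500 in normal exercise, 38.4 in cancer control and 441 in cancer exercise, a difference of -1.76 (-1.93 to -1.60). Both were lowest in cancer control, and cancer exercise lay between that library and the tumor-free ones. Alveolar type 1 cells, the thin cells of gas exchange, had 5 of 23 genes lower and a median of -0.54. Cldn18, the claudin of their junctions, was at 16406 in normal control, 14816 in normal exercise, 1213 in cancer control and 6566 in cancer exercise, a difference of -1.17 (-1.22 to -1.13), whereas Aqp5, their water channel, was at 919 in normal exercise and 981 in cancer exercise and 0.09 (-0.04 to 0.23). Neutrophil, red cell and platelet genes were higher in the cancer exercise library while these lists had medians below 0. The mature neutrophil list summed to 16658 in normal exercise and 222236 in cancer exercise, and the type 2 list to 345553 and 232820. The hemoglobin list, in which rows may hold the same reads, summed to 1663556 and 4912075. Their part in the lung values was not tested.

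Airway cells gave small differences with a few large exceptions. Of 22 secretory genes 2 were higher and 4 lower. Retnla, a resistin-like protein induced by type 2 cytokines, was at 692 in normal control, 1224 in normal exercise, 2942 in cancer control and 18015 in cancer exercise, a difference of 3.88 (3.80 to 3.96), and was far above the rest in cancer exercise. Bpifa1, an antimicrobial protein of the upper airway, was at 774 in normal control, 805 in normal exercise, 13738 in cancer control and 280 in cancer exercise, and Reg3g, an antimicrobial lectin, was at 291 in normal control, 320 in normal exercise, 9607 in cancer control and 132 in cancer exercise. The last 2 were high in cancer control and lowest in cancer exercise, with differences of -1.52 (-1.74 to -1.32) and -1.27 (-1.59 to -0.96). Of 20 ciliated cell genes 1 was lower, Tppp3 at 5396 in normal exercise and 2527 in cancer exercise, and the median of 0.11 turned to -0.30 with the scaling by totals alone. Foxj1, the master factor of cilia, was at 529 in normal exercise and 277 in cancer exercise, a difference of -0.93 (-1.16 to -0.71).

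Endothelium was lower in 7 of 36 genes and higher in 1, with a median of -0.27. Calcrl, the receptor for adrenomedullin, was at 12034 in normal control, 11568 in normal exercise, 462 in cancer control and 4016 in cancer exercise, a difference of -1.53 (-1.58 to -1.47). Kdr, the main VEGF receptor, was at 5633 in normal control, 4460 in normal exercise, 431 in cancer control and 1965 in cancer exercise, a difference of -1.18 (-1.26 to -1.10). Apln, the peptide apelin of sprouting tip cells, was at 605 in normal control, 628 in normal exercise, 160 in cancer control and 60.9 in cancer exercise, a difference of -3.34 (-3.80 to -2.96). All 3 were lower in both injected libraries than in either tumor-free one, and Apln was lowest in cancer exercise. Of the 36 genes 28 were below 0. Emcn, a sialomucin of capillaries and veins, was lower at 538 in normal exercise and 190 in cancer exercise, with 548 in normal control and 46.1 in cancer control. Log2 differences inside the limit included Pecam1 at -0.09 (-0.14 to -0.05), Cldn5 at 0.72 (0.61 to 0.83) and Eng at 0.38 (0.28 to 0.48). Vwf, the higher gene of the list, is shared with platelets and was at 1276 in normal exercise and 3012 in cancer exercise, with 1575 in normal control and 300 in cancer control.

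Fibroblast genes were lower in 6 of 26 cases and higher in 1, with a median of -0.66. Itga8, an integrin of alveolar fibroblasts, was at 580 in normal control, 434 in normal exercise, 15.4 in cancer control and 125 in cancer exercise, and Mfap4, a microfibril protein, was at 457 in normal control, 477 in normal exercise, 17.6 in cancer control and 125 in cancer exercise. Both were lowest in cancer control, with differences of -1.78 (-2.11 to -1.49) and -1.92 (-2.24 to -1.63). Smooth muscle and pericyte genes were lower in 2 of 19, near the 8.14% of all genes, but all 19 were below 0, with a median of -0.50. They ran from -1.68 to -0.04, with Higd1b, a pericyte gene, at -1.20 (-1.41 to -0.99), and with Acta2 at -0.26 (-0.36 to -0.17) and Myh11 at -0.08 (-0.24 to 0.09), inside the limit. Collagen genes were higher in 1 of 17 and lower in 1, with a median of 0.26 that turned to -0.15 with the scaling by totals alone. Col1a1 was at 663 in normal control, 640 in normal exercise, 1713 in cancer control and 1448 in cancer exercise and Col4a5, a basement membrane chain, at 142 in normal control, 167 in normal exercise, 60.3 in cancer control and 43.4 in cancer exercise. Their differences were 1.18 (1.04 to 1.31) and -1.92 (-2.50 to -1.43). Matrix proteins, metalloproteinases and their inhibitors were higher in 14 of 32 and lower in 2. The higher ones included Mmp8 and Mmp9, which neutrophils also carry, and Thbs1, which platelets also carry. Timp1, an inhibitor of metalloproteinases, was at 22 in normal control, 49.5 in normal exercise, 1019 in cancer control and 428 in cancer exercise, and Postn, periostin, was at 1268 in normal control, 1127 in normal exercise, 47.2 in cancer control and 350 in cancer exercise. Timp1 was higher and Postn lower in both injected libraries, with differences of 3.08 (2.69 to 3.55) and -1.68 (-1.88 to -1.50).

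The large housekeeping groups moved little. None of the 80 cytosolic ribosomal protein genes passed the limit, and their values ran from -0.36 for Rpl26 to 0.86 for Rps2. Of 75 oxidative phosphorylation genes 1 was lower, and of 36 proteasome genes 1 was higher. The medians of 0.16, 0.07 and 0.29 turned to -0.26, -0.34 and -0.12 with the scaling by totals alone. The exception of the respiratory list was Sdhd, a membrane anchor of succinate dehydrogenase, at 93.4 in normal control, 62.4 in normal exercise, 469 in cancer control and 13 in cancer exercise. It was lowest in cancer exercise on 11 reads, with a difference of -2.18 (-3.35 to -1.35), while its partner Sdhb was at 0.59 (0.51 to 0.67). Psme3, an activator of the nuclear proteasome, was at 438 in normal exercise and 901 in cancer exercise. Apoptosis genes were higher in 7 of 26 cases and lower in 2. Cdkn1a, the p21 inhibitor of the cell cycle, was at 1809 in normal control, 5017 in normal exercise, 3750 in cancer control and 18832 in cancer exercise, and Cflar, the inhibitor of caspase 8, was at 2012 in normal control, 2572 in normal exercise, 913 in cancer control and 834 in cancer exercise. Cdkn1a was highest and Cflar lowest in cancer exercise, with differences of 1.91 (1.86 to 1.95) and -1.62 (-1.75 to -1.51).

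Several of the largest downward differences belonged to no list. Thrsp, a factor of lipid synthesis, was at 660 in normal control, 315 in normal exercise, 15.4 in cancer control and 14.2 in cancer exercise. Scn3b, a sodium channel subunit, was at 526 in normal control, 513 in normal exercise, 15.4 in cancer control and 31.7 in cancer exercise. Pdgfb, which endothelium uses to recruit pericytes, was at 451 in normal control, 273 in normal exercise, 47.2 in cancer control and 24.7 in cancer exercise. Each was far lower in both injected libraries than in the tumor-free ones, with differences of -4.38 (-5.46 to -3.67), -3.98 (-4.64 to -3.47) and -3.41 (-4.19 to -2.84). Ppp1r3c, which targets a phosphatase to glycogen, was at 287 in normal control, 260 in normal exercise, 1.16 in cancer control and 25.9 in cancer exercise, and Fabp1, a fatty acid carrier, was at 218 in normal control, 349 in normal exercise, 0.0629 in cancer control and 44.6 in cancer exercise. These 2 were lower still in cancer control, where Fabp1 had 0 reads and Ppp1r3c had 1. The 8 genes lying furthest below the other 3 libraries in cancer exercise were Tdrd7, Ccdc38, Unk, Zfp606, Gap43, Kif1bp, Cmtm3 and Sdhd. Tdrd7, an RNA granule protein, was at 207 in normal control, 181 in normal exercise, 292 in cancer control and 24.7 in cancer exercise, and Unk, an RNA-binding zinc finger protein, was at 150 in normal control, 121 in normal exercise, 107 in cancer control and 25.9 in cancer exercise. Of the 765 lower genes 387 were lowest of the 4 libraries in cancer exercise, and of the 921 higher genes 566 were highest there. Over all 9396 genes the same library was lowest for 2209 and highest for 1971. A called gene already lies above or below normal exercise, so a larger share than over all genes is built into the call.

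The same contrast in resting mice, E(-)T(+) minus E(-)T(-), is given side by side for the genes described. The pairs share no library, but each contrast rests on 1 library a group, so the difference between them was not tested. Over all 9396 genes 18.3% were higher and 20.0% lower by 2-fold in resting lung. Of the 921 genes higher in exercised lung 480 (52.1%) were also higher in resting lung, 365 were inside the limit and 76 (8.25%) were lower. Of the 765 lower genes 422 (55.2%) were also lower, 319 were inside and 24 (3.14%) were higher. The 480 made up 27.8% of the genes higher in resting lung, and the 422 made up 22.5% of those lower there. The median size of the difference was 0.46 in the exercised pair and 0.75 in the resting pair. Median differences in the resting pair went further from 0 for most lung cell lists. Alveolar type 2 genes were at -0.60 in exercised and -2.48 in resting lung, type 1 genes at -0.54 and -1.89, endothelium at -0.27 and -2.89, fibroblasts at -0.66 and -2.62 and MHC class II at -0.62 and -3.99. Division genes were at 1.71 and 4.05. Neutrophil genes were the other way round, at 2.97 and 1.26, as were platelet genes at 2.48 and 0.42. Heat shock genes were at -1.04 and 0.25, and immediate early genes at 1.65 and -0.02. Stefin A genes were at 5.71 and 5.70. Some members of these lists passed the filter only through cancer exercise, where they are high. They were 6 of 21 mature neutrophil, 2 of 13 platelet, 3 of 27 immediate early and 5 of 7 stefin A genes. The cancer control library had the fewest reads and the lowest hemoglobin share of the 4, and its part in these gaps was not tested.

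**Figure D4:**
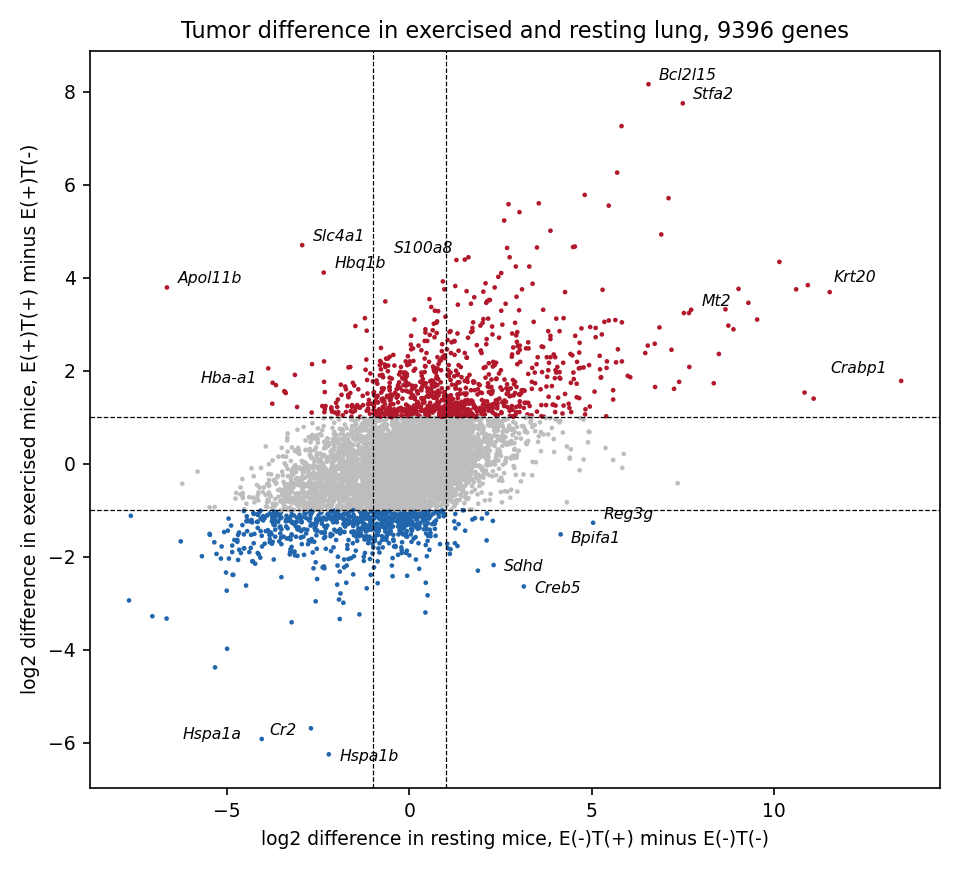
Each point is a gene with a mean of at least 100 normalized counts, with the log2 tumor difference in resting mice, E(-)T(+) minus E(-)T(-), on the x axis and that in exercised mice, E(+)T(+) minus E(+)T(-), on the y axis. Genes past the 2-fold limit in exercised mice are red where higher and blue where lower, and the dashed lines mark that limit in each contrast. The 76 genes higher in exercised and lower in resting lung are the red points at the upper left, with Hba-a1 among them, and the 24 with the opposite pattern are the blue points at the lower right.

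Among the genes of opposite sign the widest gap was that of Apol11b, which passed the filter only through cancer exercise. Apol11b (chr15:77633951-77643286), an apolipoprotein L, was at 106 in normal control, 116 in normal exercise, 0.0636 in cancer control and 1617 in cancer exercise, with 3.79 (3.54 to 4.08) in the exercised pair and 0 reads in cancer control against 125 in normal control. Slc4a1 was at 4.70 in the exercised and -2.94 in the resting pair, and Alas2 at 1.91 and -3.14. All 6 genes of the hemoglobin list were among the 76, and so was Hbq1b. Neutrophil and plasma cell genes were there too. Fpr2 was at 2.07 and -1.67, and Jchain was at 2.96 and -1.48. In the opposite direction, Hsp90ab1 was at -1.82 in the exercised and 1.06 in the resting pair. Serpinh1, the collagen chaperone Hsp47, was at -1.72 and 1.04. Creb5, a transcription factor of the CREB family, was at 53.4 in normal control, 225 in normal exercise, 480 in cancer control and 35.2 in cancer exercise, so it was highest in cancer control and lowest in cancer exercise.

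**Figure D5:**
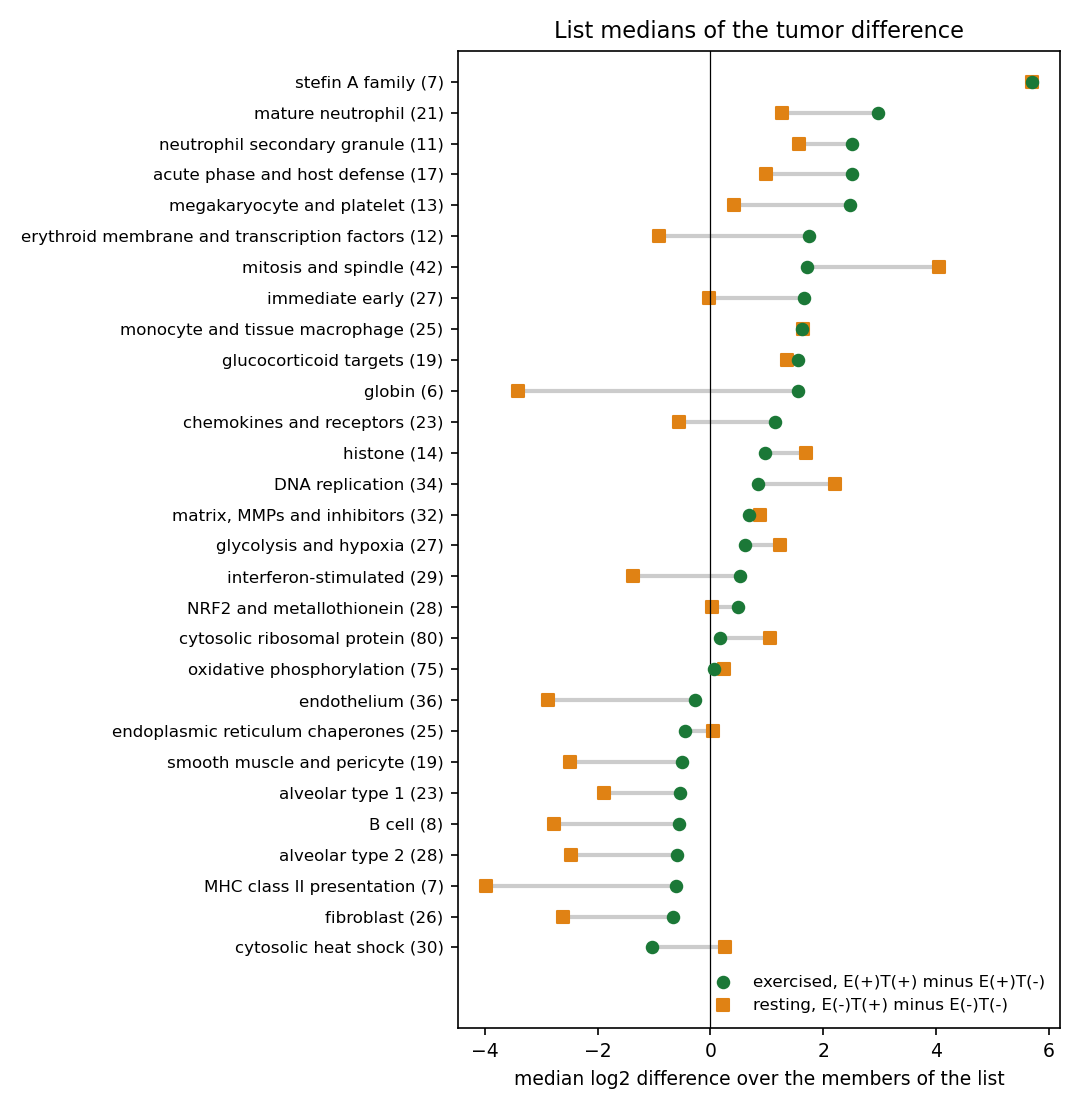
Median log2 tumor difference of each gene list in resting mice, E(-)T(+) minus E(-)T(-), and in exercised mice, E(+)T(+) minus E(+)T(-), with 1 point for each pair of libraries and no error bars because each group had 1 library. The hemoglobin median is 1.55 in exercised and -3.42 in resting lung, and the heat shock median is -1.04 and 0.25.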

How the data were processed

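Total RNA of lung from 4 groups of mice was made into QuantSeq 3′ mRNA libraries, 1 for each group, and read to between 9354602 and 13367996 reads a library. Per the submitters' processing notes, the authors aligned reads to mm10 with Bowtie2 and used bedtools, and the study's methods state quantile normalization in edgeR. The deposited values are log2 of the normalized count plus 1, made by the authors, and the version of each of these tools is not given in the sources used here. The files were joined by gene row. Normalized counts were computed as 2 to the power of the value, minus 1, and the genes kept had a mean of at least 100 over the 4 libraries. Whole reads were recovered by inverting the negative binomial quantile step of that normalization with a fitted dispersion of 0.3721. The library sizes and dispersion were refitted on 1500 rows. Over the values of all rows 100.00% came within 0.001 of the deposited value, and 94.60% were low enough to be resolved to 1 read. The remaining values, which are the highest, are approximate, and so are the library sums. Exact 95% intervals of read ratios were scaled by the effective library sizes, and the procedure was tested on simulated data.

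With 1 library a group no test across samples was possible. A gene was called at a 2-fold difference, the limit the study used. Alternatives were scaling by totals, by totals without hemoglobin genes and Rn45s, by median ratios and by effective sizes, a pseudocount of 10, filters at 4 and 500 and over the exercised pair, and removal of a share of the cancer control level. Genes were named as the 15 largest differences each way, the 10 highest levels, members of the 60 gene lists past the filter, the 8 furthest each way outside the other 3 libraries and the 8 largest gaps each way to the resting contrast. Members and lists were chosen with earlier results of these data known. Genes of the same symbol occupied 79 rows. Some genes that meet these rules are not reported here. Columns of sample values left unused numbered 0. Promoter sequences came from RefSeq on GRCm38.p6, and repeated 50-base words from the GENCODE transcripts of the same assembly. Python 3.11.15, numpy 2.4.6, scipy 1.17.1, pandas 2.3.3 and matplotlib 3.10.9 were used.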

Additional observations from a re-analysis of the deposited data

Results flagged for a closer look

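The tumor difference had opposite signs in exercised and resting lung for 76 genes that were at least 2-fold higher in the exercised pair and 2-fold lower in the resting pair, and for 24 genes with the reverse pattern. They were 8.25% of the genes higher and 3.14% of those lower in the exercised pair, while over all genes 20.0% were lower and 18.3% higher in the resting pair. With 1 library in each group the difference between the contrasts was not tested. The hemoglobin list was among the opposite results, with a median of 1.55 in exercised and -3.42 in resting lung. Its members were Hbb-b2 at 1.74 and -3.75, Hbb-bt at 1.69 and -3.66, Hba-a1 at 1.56 and -3.43, Hbb-b1 at 1.54 and -3.41, Hbb-bs at 1.52 and -3.39, and Hba-a2 at 1.22 and -3.08. Rows of close level, Hbb-b1 with Hbb-bs and Hbb-b2 with Hbb-bt, may hold the same reads. Slc4a1 and Hbq1b, which passed the filter only through cancer exercise, had larger gaps. Slc4a1 was at 4.70 in exercised and -2.94 in resting lung, and Hbq1b, a theta globin outside the list, at 4.11 and -2.35. Apol11b, which also passed only through that library, was at 3.79 in exercised lung and had 0 reads in the cancer control library, against 125 in normal control.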

How the results depend on the processing

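With 1 library a group, neither a tumor effect nor an exercise effect can be told apart from the difference between individual lungs, and no library could be left out. No paired analysis was possible because each group had 1 library and the labels give no replicate number. Scaling by library totals alone gave 517 genes higher and 1890 lower, and moved 56 of 59 list medians, all downward by about the shift of the median gene. The filter set the counts. A mean of at least 4 gave 4223 genes past the limit, 2259 higher and 1964 lower, and a mean of at least 500 gave 591, 345 higher and 246 lower. Median ratios gave 921 and 763, effective sizes 920 and 764, a pseudocount of 10 gave 870 and 716, and the filter over the exercised pair 887 and 743. The cytotoxic list median of 3.46 turned to -1.11 under both the filter at 500 and that over the exercised pair, which leave fewer of its genes. Removing a share of the cancer control level moved 27 of 258 named genes by more than the half-width of their interval, and totals without hemoglobin genes and Rn45s moved 32. The removal lowers the normal exercise value, so upward differences grow, more where cancer control is far above normal exercise, as for Mt2, Saa3 and Fosl1.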

Other observations

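Blood and stromal lists outside the main groups were also measured. Eosinophil, mast cell and basophil genes had 0 of 4 higher and 1 lower, with a median of -0.75. With the filter at a mean of 4 this list had 14 genes, 2 higher and 3 lower, and a median of -0.08. Gata2, a factor of mast cells and endothelium, was at 1230 in normal exercise and 502 in cancer exercise, with 1037 in normal control and 557 in cancer control. Dendritic cell genes had 2 of 8 higher and 0 lower, against 4 and 7 of 21 with the lower filter. Clec9a, a receptor of cross-presenting dendritic cells, was at 187 in normal exercise and 108 in cancer exercise, a log2 difference of -0.79 (-1.17 to -0.44), and Clec10a, a lectin of another subset, was at 68.8 in normal exercise and 198 in cancer exercise, a difference of 1.51 (1.12 to 1.93). Plasma cell genes had 2 of 6 higher. Lymphatic endothelium had 1 of 7 genes higher and 1 lower. Lyve1, the hyaluronan receptor of lymphatic vessels and some macrophages, was at 3909 in normal control, 5732 in normal exercise, 3077 in cancer control and 11803 in cancer exercise, a difference of 1.04. Mesothelium had 3 of 10 higher and 2 lower, and the higher ones were the keratins Krt8, Krt18 and Krt19, which lung epithelium also makes. The lymphatic and mesothelial medians of 0.40 and 0.37 turned to -0.01 and -0.04 with scaling by totals alone, and the mesothelial one to -0.11 with the lower filter. Heart muscle genes, found in lung in the walls of the pulmonary veins, had 2 of 13 lower, Actc1 at 524 in normal exercise and 220 in cancer exercise and Myl7 at 254 in normal exercise and 84.3 in cancer exercise. No gene of the skeletal muscle list reached a mean of 100.

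Lipid and metabolic lists showed a few genes apart from small medians. Cholesterol and fatty acid synthesis had 1 of 31 genes higher, Pmvk at 288 in normal control, 347 in normal exercise, 483 in cancer control and 1440 in cancer exercise, and a median of 0.16 that turned to -0.25 with scaling by totals alone. Fatty acid oxidation and fasting genes had 1 of 26 higher and 5 lower. Ucp2, an uncoupling protein abundant in myeloid cells, was at 1333 in normal control, 1235 in normal exercise, 947 in cancer control and 3431 in cancer exercise, a difference of 1.47 (1.38 to 1.57). Acadm, the medium-chain acyl-CoA dehydrogenase, was at 582 in normal control, 492 in normal exercise, 427 in cancer control and 192 in cancer exercise, a difference of -1.35 (-1.62 to -1.10). Adipocyte genes had 3 of 11 higher and 1 lower, with Dgat2, which makes triglyceride, at 77.1 in normal exercise and 319 in cancer exercise, with 103 in normal control and 59.3 in cancer control. Dgat2 passed the filter only through cancer exercise. Xenobiotic metabolism had 1 of 18 higher and 2 lower, and Cyp2f2, the club cell cytochrome, was at 32048 in normal exercise and 25109 in cancer exercise, inside the limit. Ribosome biogenesis had 1 of 28 higher, Rrp1b at 179 in normal exercise and 438 in cancer exercise, and its median of 0.38 turned to -0.03 with scaling by totals alone.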
